A study of Bos taurus with 4 samples.

Results

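Chromatin accessibility around the aquaporin genes AQP1, AQP3, AQP5, AQP7, AQP9 and AQP11 was examined in cattle rumen epithelial cells. These 6 genes, of 24886 gene names in the deposited interval table, were chosen by the accessibility values of their intervals in the same 4 libraries. Every difference at these genes is therefore given as a description, and calls from the fit over all regions are counted beside their background alone, with nothing read from them. All intervals whose gene annotation named a member were taken, 81 intervals that merged into 26 regions of 115970 in all. A region was a promoter region when the summit of an interval lay within 1000 bp of the gene's annotated start, and a distal region otherwise. This gave 3 promoter regions and 23 distal regions. Nearest to that limit, the AQP5 region with its summit 257 bp upstream of the start was the promoter member closest to it, and the AQP7 region 1115 bp upstream and the AQP5 region 1295 bp downstream lay just outside.

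Aquaporins are channel proteins of cell membranes that let water pass along an osmotic gradient. AQP1 and AQP5 are selective for water, AQP3, AQP7 and AQP9 are aquaglyceroporins that also pass glycerol and urea, and AQP11 is a distant relative found mainly on membranes inside the cell. The rumen wall is lined by a stratified epithelium that absorbs short-chain fatty acids and exchanges water and urea between blood and rumen fluid.

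The assay was ATAC-seq, in which a transposase cuts accessible DNA and tags it for sequencing. It was applied to primary cells cultured from the rumen epithelium of a Holstein bull calf aged 2 weeks that was fed milk replacer. The treated cells had butyrate, a fatty acid of rumen fermentation that inhibits histone deacetylases, in the medium at 5 mM for 24 h, and control cells had none. The groups are BT-named (2 libraries) and Control-named (2 libraries), after the library names that the values carry. The sample titles and the treatment field state the opposite assignment of both pairs, so the size of each difference holds for either reading but its direction is contested. The libraries of a group are called biological replicates in the study's supplement, but the sources used here do not say whether they came from separate cultures. All cells came from 1 calf, so errors and p-values reflect how far these libraries differ and nothing wider.

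The BT-named libraries listed 83391 and 84808 intervals and the Control-named libraries 94941 and 98962. Each interval had a peak value, the signal at its summit, and an average value, the mean signal along it, so that average values of intervals of unequal length are on a per-base scale. The lowest peak value listed was 21 or 22 in every library, and a region that is missing from a list is therefore not a region without signal. Of 12 markers of basal and stratified epithelium, 7 had a promoter region in all 4 libraries, and TP63, DSG3 and CDH1 had none in any. The summed peak values of that list were 1129 and 1363 in BT-named libraries and 1266 and 1404 in Control-named libraries. These sums hide markers that went opposite ways. KRT14 had 148 and 172 in BT-named libraries and 43 and 59 in Control-named libraries, and SFN, with 127 and 209, was in BT-named lists only. KRT15 had 130 and 127 in BT-named libraries and 263 and 251 in Control-named libraries, and COL17A1, with 54 and 68, was in Control-named lists only. Promoter regions in all 4 libraries were found for 2 of 8 markers of fibroblasts and smooth muscle, 1 of 4 of endothelium, 1 of 6 of blood cells and 0 of 3 of adipocytes. Their summed peak values were 426 and 548 in BT-named against 501 and 728 in Control-named libraries for fibroblasts and smooth muscle, and 48 and 36 in BT-named against 52 and 51 in Control-named libraries for endothelium. For blood cells they were 39 and 58 in BT-named against 150 and 195 in Control-named libraries. A promoter missing from a list adds nothing to these sums, so they partly reflect listing. The BT-named blood cell sums are SPI1 alone, which had 57 and 63 in Control-named libraries. The Control-named sums also hold CD68, with 93 and 132, which no BT-named library listed. The epithelial and fibroblast sums likewise include promoters missing from some lists. Whether the makeup of the cultures had a part in the differences was not tested. In cultured cells measured in bulk, a region open in fewer cells and a region less open in each cell cannot be told apart.

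The aquaporin regions differed in which libraries listed them. AQP1 had 6 regions, AQP3, AQP5 and AQP7 had 5 each, AQP9 had 3 and AQP11 had 2, and the median over all genes with a region was 4. By position, 9 of the 26 regions lay inside the gene, 5 upstream and 12 downstream, and 3 overlapped a CpG island. In the BT-named libraries 18 and 19 of the 26 were listed, and in the Control-named libraries 21 and 23. Of the 26 regions, 15 were listed in all 4 libraries, against a background of 56.8% of all merged regions. One further region, downstream of AQP7, was listed in both BT-named libraries and neither Control-named library (background 4.51%). Another 3 regions, 2 at AQP3 and 1 at AQP9, were in neither BT-named list and in both Control-named lists (background 13.1%). A single library listed 4 regions, and 3 libraries listed the other 3. Nothing is read from these counts, because listing was among the values that chose the genes.

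**Figure D1:**
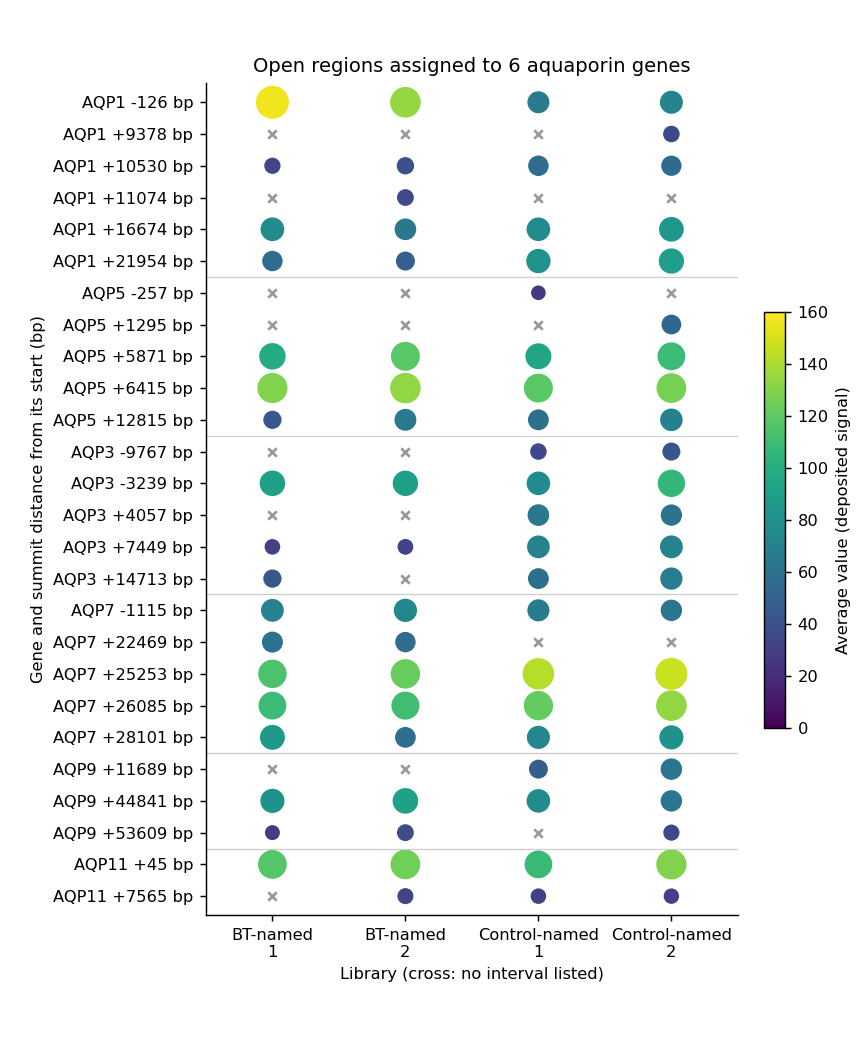
All 26 regions assigned to the 6 aquaporin genes, in rows named by gene and by the distance of the summit from the gene's start in bp (negative is upstream), with the BT-named libraries in the left columns and the Control-named libraries in the right columns. Dot size and colour give the average value of the deposited signal on a linear scale and a cross marks a library that listed no interval: the small dark dots of the BT-named columns at AQP3 +7449 bp are the values 30.8 and 31.5, and the large light dots at AQP1 -126 bp are the BT-named values of 157 and 134.

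The 15 regions listed in all 4 libraries gave a difference for each, as BT-named minus Control-named on the scale of log2(average value + 1). These differences ran from -1.17 to 1.06 with a median of -0.12, beside a median of -0.24 over all 65892 regions listed in all libraries. As deposited, 7 were positive and 8 negative. Scaling the libraries to a common median moved every difference up by 0.36, and 12 of the 15 were then positive, as they were after quantile normalization. The median difference over all regions also turned positive, to 0.13 after median centring and 0.05 after quantile normalization. The median average value of the 15 regions was 77.8 and that of all regions 79.4.

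In the limma fit over all regions, 1 aquaporin region was called higher and 3 lower with the values as deposited (background 6.90% and 39.4%). After median centring 7 were called higher and 1 lower (background 30.2% and 20.4%), and after quantile normalization 7 and 1 (background 23.3% and 22.7%). Under all 3 scalings, 1 region was called higher (background 6.89%), the promoter region of AQP1, and 1 lower (background 20.0%), a region downstream of AQP3. The average values of the BT-named libraries all lay above those of the Control-named libraries at 4 regions (background 15.9%) and all below at 5 (background 54.4%), and the groups overlapped at 6. Since the same values chose the genes, these counts describe the members and show nothing more.

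**Figure D2:**
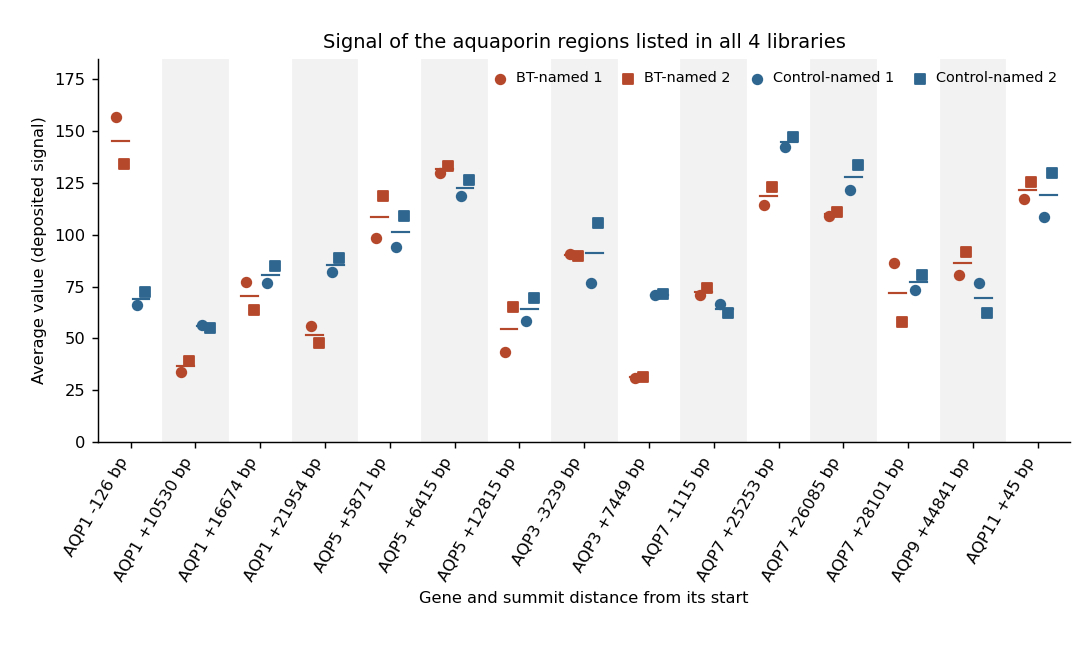
Average value of the deposited signal in each library at the 15 aquaporin regions listed in all 4 libraries, with BT-named libraries left of Control-named libraries within each region and short lines at the group means. The groups stand apart most at AQP1 -126 bp, with 157 and 134 in BT-named libraries and 65.9 and 72.4 in Control-named libraries, and at AQP3 +7449 bp, with 30.8 and 31.5 in BT-named libraries and 70.7 and 71.3 in Control-named libraries.

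AQP1 is the water channel of red blood cells, of the endothelium of many vessels and of kidney tubules. Its promoter region (UMD3.1 chr4:65845027-65845634) had its summit 126 bp upstream of the annotated start, at position 65845186 on the minus strand, and overlapped no CpG island. Its average value was 157 and 134 in BT-named libraries, against 65.9 and 72.4 in Control-named libraries. Both BT-named values lay above both Control-named values, with group means of 145 ± 16.1 in BT-named and 69.2 ± 4.61 in Control-named libraries (SD, n = 2 each). The BT-named mean was 2.1-fold the Control-named mean, a log2 difference of 1.06 ± 0.17 (SE).

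The same order held for the summit of the AQP1 promoter, with peak values of 277 and 235 in BT-named libraries and 89 and 109 in Control-named libraries. The listed intervals were 541 and 589 bp long in the BT-named libraries, against 344 and 454 bp in Control-named libraries. These lengths belong to the same intervals as the values above and are not a separate measure of the difference. After median centring the log2 difference was 1.42, after quantile normalization 1.39, and for peak values 1.36. Without any 1 library it ran from 0.94 to 1.17. Of all regions, 99.6% had a lower difference as deposited, and of 12815 genes with a promoter region in all libraries, 99.8% did. The level of the region was not unusual among promoters, as 34.0% of them had a lower mean value. The region was also assigned to LOC104972099, whose annotated start lay 40 bp from the summit, so accessibility of the AQP1 start and of that gene's start cannot be told apart here. Of the 4 endothelial markers, PECAM1, CDH5 and TEK had no promoter region in any library. Among the 6 blood cell markers, the red cell regulators GATA1 and KLF1 had none, and neither had PTPRC and CD3E. SPI1 was listed in all 4 libraries and CD68 in the Control-named libraries alone. The epithelial markers TP63, DSG3 and CDH1 had none either, so a missing promoter region does not show that a cell type was absent. Whether such cells were present was not tested. KDR, the endothelial marker that had one, reached peak values of 48 and 36 in BT-named libraries and 52 and 51 in Control-named libraries.

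At 2 of the 3 shared regions inside and downstream of AQP1 the order was the other way round. The region 10530 bp downstream of the start and within the gene had average values of 33.8 and 39.1 in BT-named libraries, against 56.4 and 55.1 in Control-named libraries. Both BT-named values were the lower ones, and the log2 difference was -0.60 ± 0.20 as deposited, -0.24 after median centring and -0.38 after quantile normalization. The intervals averaged there were 504 and 272 bp long in BT-named libraries and 732 and 719 bp in Control-named libraries. The summit of BT-named replicate 1 lay 160 bp from the stated one. The region 21954 bp from the start, beyond the 3′ end, had 56.0 and 47.7 in BT-named libraries and 82.0 and 88.9 in Control-named libraries. Again the groups did not overlap, with log2 differences of -0.71 ± 0.18 as deposited, -0.35 after median centring and -0.39 after quantile normalization. Here too the intervals differed in length, with 385 and 738 bp in BT-named libraries and 897 and 934 bp in Control-named libraries. Between them, the region at 16674 bp had 77.3 and 63.5 in BT-named libraries and 76.7 and 84.9 in Control-named libraries. The stated summit there is that of Control-named replicate 2. In chromosome position the BT-named summits lay at -352 and -288 bp from it, and that of Control-named replicate 1 at -128 bp. Whether the libraries share 1 site within this merged region was not tested. The average values of the groups overlapped at 16674 bp, and the log2 difference of -0.20 ± 0.18 turned to 0.16 after median centring. The remaining AQP1 regions were listed once each, at 9378 bp with an average value of 35.1 in a Control-named library and at 11074 bp with 36.2 in a BT-named library.

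**Figure D3:**
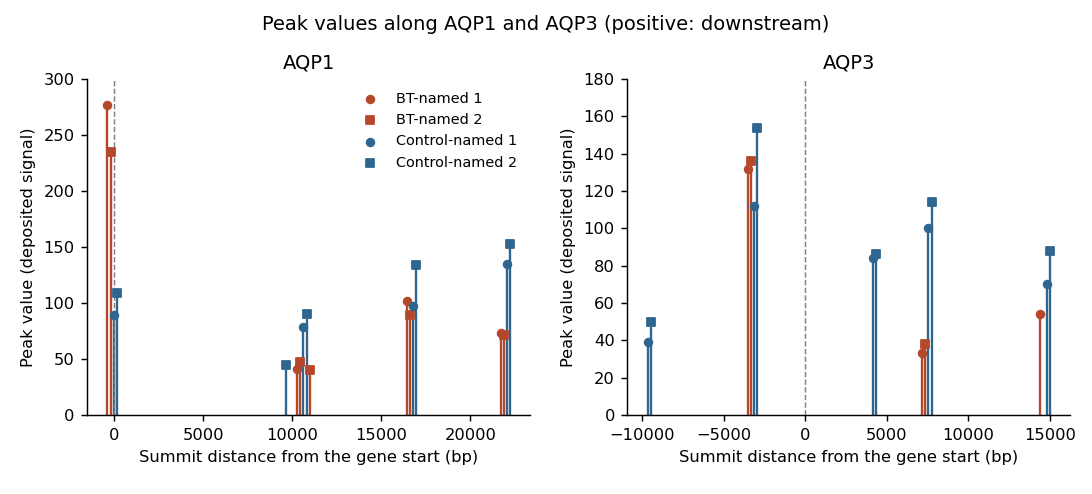
Peak value of the deposited signal (vertical axis, linear) of every listed interval at AQP1 and AQP3, against the distance of the region's tallest summit from the gene start in bp (horizontal axis, positive is downstream, dashed line at the start). All libraries of a region are drawn at that position, set slightly apart sideways, so summits that differ between libraries are not shown. At AQP1 the BT-named peaks of 277 and 235 stand at the start and the Control-named peaks are the taller ones at 21954 bp, while at AQP3 no interval stands at the start and the BT-named peaks at 7449 bp are 33 and 38 against 100 and 114 in Control-named libraries.

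AQP5 is the water channel on the lumen side of salivary, tear and airway gland cells. Its start region (chr5:30084683-30084995), which overlapped a CpG island, was listed in 1 Control-named library alone, with a peak value of 29 that was close to the lowest listed. A region 1295 bp into the gene was likewise listed in the other Control-named library alone, with a peak value of 65. All 5 regions assigned to AQP5 were also assigned to AQP6, the neighbouring gene for an aquaporin of acid-secreting kidney cells, and the 2 most open of them lay 316 and 860 bp downstream of the AQP6 start.

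The stronger of the pair near the AQP6 start (chr5:30077895-30078394, a CpG island region) had average values of 130 and 133 in BT-named libraries and 118 and 126 in Control-named libraries. The BT-named values were the higher ones by a small margin, with a log2 difference of 0.10 ± 0.16 as deposited and 0.47 after median centring. Its neighbour had 98.4 and 119 in BT-named libraries and 94.2 and 109 in Control-named libraries. The groups overlapped, and the log2 difference was 0.09 ± 0.16. At the region 12815 bp downstream of the AQP5 start, the values were 43.5 and 65.3 in BT-named libraries and 58.5 and 69.5 in Control-named libraries, which overlapped as well (log2 difference -0.25 ± 0.19).

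AQP3 is the aquaglyceroporin of the basolateral membrane of many epithelia and of the living layers of the skin. None of its 5 regions lay within 1000 bp of its start (chr8, 76531321, minus strand). The nearest, 3239 bp upstream, had average values of 90.8 and 89.6 in BT-named libraries and 76.6 and 106 in Control-named libraries. Both BT-named values lay between the Control-named values, and the log2 difference was 0.00 ± 0.17. It became 0.36 after median centring.

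The AQP3 region 7449 bp downstream of the start (chr8:76523721-76524203), beyond the 3′ end, had average values of 30.8 and 31.5 in BT-named libraries, against 70.7 and 71.3 in Control-named libraries. The replicates were nearly equal within each group and the groups lay far apart, with means of 31.1 ± 0.48 in BT-named and 71.0 ± 0.45 in Control-named libraries (SD, n = 2 each). The BT-named mean was 0.438-fold the Control-named mean. The log2 difference was -1.17 ± 0.20 as deposited, -0.80 after median centring, -0.95 after quantile normalization and -1.57 for peak values. Without any 1 library it ran from -1.18 to -1.15. Of all regions, 5.72% had a lower difference. Peak values were 33 and 38 in BT-named libraries and 100 and 114 in Control-named libraries, so the BT-named intervals lay near the bottom of what was listed.

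Other AQP3 regions were missing from BT-named lists. The region inside the gene, 4057 bp from the start, was in neither BT-named list and had average values of 63.5 and 61.4 in Control-named libraries. The region 9767 bp upstream was again in neither BT-named list and had 35.0 and 42.6 in Control-named libraries. The region 14713 bp downstream was listed in a single BT-named library at 43.7, and in both Control-named libraries at 58.4 and 67.9. Thus 3 and 2 AQP3 regions were listed in the BT-named libraries and 5 in each Control-named library. No fold is given for an unlisted region, whose signal below the listing limit is not known. Both upstream regions were also assigned to NOL6, a gene for a nucleolar protein of ribosome assembly.

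AQP7, the aquaglyceroporin through which fat cells release glycerol, lay on the same chromosome with its start (76484933, minus strand) 46388 bp from that of AQP3. Each BT-named library listed 5 AQP7 regions and each Control-named library listed 4. Its region 1115 bp upstream of the start had average values of 71.1 and 74.1 in BT-named libraries and 66.4 and 62.0 in Control-named libraries. The BT-named averages were the higher ones, with a log2 difference of 0.18 ± 0.18 as deposited and 0.54 after median centring. Peak values there were 110 and 119 in BT-named libraries and 110 and 96 in Control-named libraries, which touched.

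Far downstream of AQP7, the region at 22469 bp had average values of 59.5 and 56.0 in the BT-named libraries and was in neither Control-named list. Next to it, the region at 25253 bp had 115 and 123 in BT-named libraries and 142 and 147 in Control-named libraries. The region at 26085 bp had 109 and 111 in BT-named libraries and 122 and 134 in Control-named libraries. At both, the BT-named values were the lower ones, with log2 differences of -0.28 ± 0.15 and -0.21 ± 0.16 as deposited that turned to 0.08 and 0.15 after median centring. The region at 28101 bp had 86.2 and 58.0 in BT-named libraries and 73.3 and 80.7 in Control-named libraries, with overlapping groups and a log2 difference of -0.12 ± 0.18. These 4 regions were also assigned to NFX1, a gene for a transcription factor, and all lay beyond the 3′ end of AQP7. The adipocyte markers ADIPOQ, PLIN1 and CIDEC had no promoter region in any library.

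AQP9 passes glycerol and other small uncharged solutes, chiefly in liver cells and white blood cells. It had no region near its start (chr10, 52199561, minus strand). The region 44841 bp into the gene had average values of 80.8 and 91.6 in BT-named libraries and 76.5 and 62.2 in Control-named libraries. Both BT-named values were the higher ones, at 1.24-fold for the means and a log2 difference of 0.32 ± 0.18 as deposited and 0.68 after median centring. Its peak values were 129 and 155 in BT-named libraries and 105 and 97 in Control-named libraries, again without overlap.

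The AQP9 region at 11689 bp, also within the gene, was in neither BT-named list and had average values of 47.4 and 62.5 in Control-named libraries. Its signal in the BT-named libraries is not known, so it gives no difference to set beside that of the region at 44841 bp. That difference was not called with the average values as deposited. It was called higher after median centring (background 30.2%) and after quantile normalization (background 23.3%). The weakest region, 53609 bp from the start, was listed in both BT-named libraries at 27.8 and 36.5 and in a single Control-named library at 33.2. The blood cell markers PTPRC and CD3E had no promoter region in any library, while CD68 was listed in the Control-named libraries alone and SPI1 in all 4.

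AQP11, an aquaporin of intracellular membranes, had the widest of the 26 regions. Its promoter region (chr29:18488101-18489212) was 1112 bp wide, overlapped a CpG island and had its summit 45 bp downstream of the start. Its average value was 117 and 125 in BT-named libraries, against 108 and 130 in Control-named libraries. Both BT-named values lay between the Control-named ones, and the log2 difference was 0.03 ± 0.16, or 0.39 after median centring. Its level was above that of 71.4% of all regions and of 40.2% of promoters. The second region, 7565 bp into the gene, was weak, with 32.8 in the 1 BT-named library that listed it and 30.4 and 30.0 in the Control-named libraries.

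Several of the small differences rested on a single library. The log2 difference at the AQP3 region 3239 bp upstream was -0.01 without BT-named replicate 1, -0.23 without Control-named replicate 1 and 0.23 without Control-named replicate 2. At the AQP11 promoter it was -0.02 without BT-named replicate 2, or -0.10 when Control-named replicate 1 was left out. The AQP5 region at 5871 bp had -0.04 without BT-named replicate 2, or -0.01 when Control-named replicate 1 was left out, the region at 12815 bp had 0.03 without BT-named replicate 1, and the AQP7 region at 28101 bp had 0.16 without BT-named replicate 2. All 5 of these regions had overlapping groups. The AQP1 region at 10530 bp, counted above as lower with the values as deposited, was not called without BT-named replicate 1 (difference -0.50), in a fit where the lone BT-named library is assumed to vary as the Control-named libraries do.

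**Figure D4:**
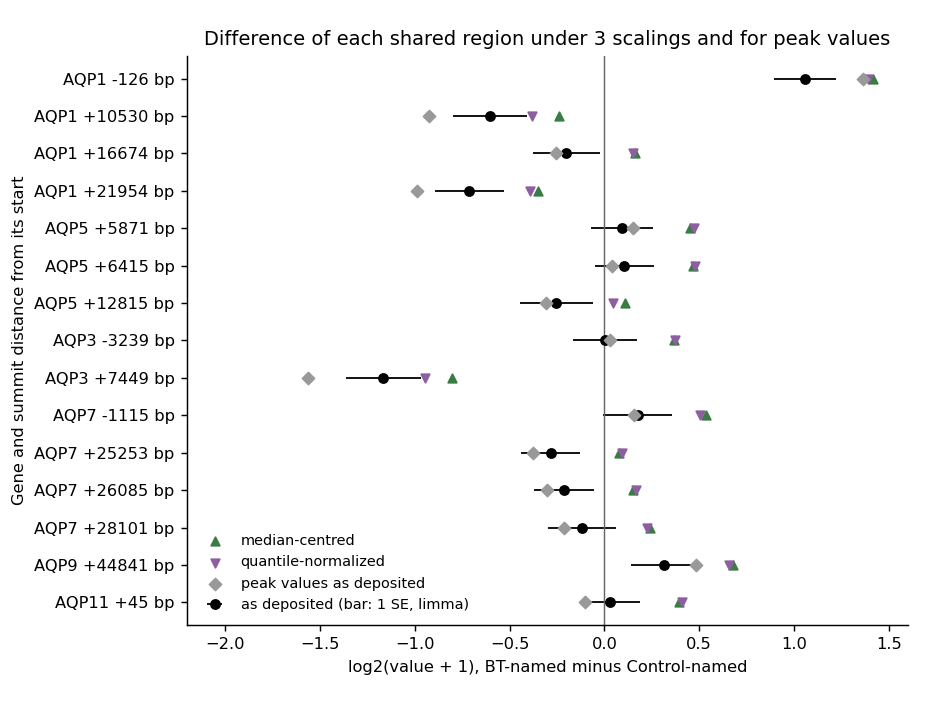
Difference of each of the 15 shared aquaporin regions, BT-named minus Control-named on the log2 scale (horizontal axis), as deposited with a bar of 1 SE from limma, median-centred, quantile-normalized, and for peak values. AQP1 -126 bp stays between 1.06 and 1.42 and AQP3 +7449 bp between -1.57 and -0.80, while the points of AQP1 +16674 bp, AQP5 +12815 bp, AQP11 +45 bp and 3 downstream AQP7 regions lie on both sides of 0.

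Ratios of average values between regions of the same gene within a library do not depend on a scale factor of that library. They were taken for all 16 pairs of shared regions within a gene, as the region nearer the start over the farther one, a measure chosen after the values were seen. The BT-named ratios all lay above the Control-named ratios in 9 pairs (background 35.3% of 222340 such pairs over all genes), all below in 1 pair (background 33.8%) and among them in 6 pairs. The pairs reuse the same regions and the values that chose the genes, so nothing is read from these counts. The AQP1 promoter was 2.80 and 2.81 times the region at 21954 bp in the BT-named libraries, against 0.804 and 0.815 times in the Control-named libraries. Against the region at 16674 bp it was 2.03 and 2.11 times in BT-named libraries and 0.859 and 0.853 times in Control-named libraries. At AQP1, then, the promoter was the most open region in both BT-named libraries and stood below both downstream regions in both Control-named libraries.

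The AQP3 region upstream of the start was 2.95 and 2.85 times the region at 7449 bp in BT-named libraries, and 1.08 and 1.48 times in Control-named libraries. The AQP7 region upstream of the start was 0.621 and 0.602 times the region at 25253 bp in BT-named libraries and 0.467 and 0.421 times in Control-named libraries. The groups were apart in both pairs. The pair in which the BT-named ratios lay below was the AQP1 region at 10530 bp over that at 16674 bp, with 0.437 and 0.616 in BT-named libraries and 0.735 and 0.649 in Control-named libraries. The downstream AQP7 regions kept overlapping ratios among themselves. Such ratios do not say which region of a pair was the same in both groups.

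**Figure D5:**
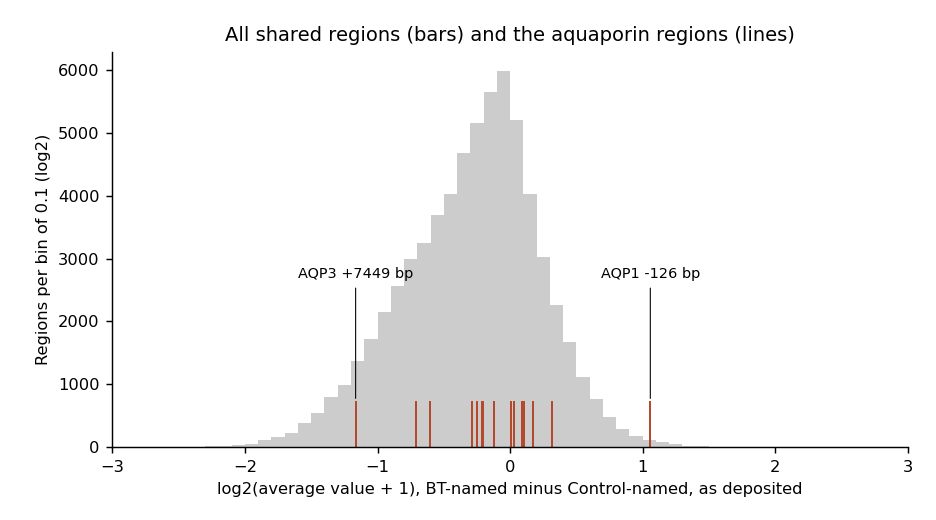
Number of regions per bin of 0.1 (bars) against the difference in log2(average value + 1), BT-named minus Control-named as deposited, for the 65892 regions listed in all libraries, with a line for each of the 15 aquaporin regions. Most aquaporin lines lie in the body of the distribution around its median of -0.24, with AQP1 -126 bp at 1.06 in the upper tail and AQP3 +7449 bp at -1.17 in the lower part.

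Other genes for water, glycerol, urea and cell volume were followed at their promoters, from a list of 42 genes that leaves out the 6 members. Of these, 38 were named in the table and 27 had a promoter region in all 4 libraries. AQP6 had 2 promoter regions, and the one tested was that described above at 6415 bp from the AQP5 start. AQP6 is left out here, which leaves 26 genes. Under all 3 scalings, 0 of the 26 were called higher and 0 lower by limma with Benjamini-Hochberg adjustment, beside 2.82% higher and 4.46% lower of all 12815 promoters. At an unadjusted p under 0.05 under all 3 scalings there was 1, in the lower direction. The median log2 difference of the 26 was -0.15 as deposited and 0.21 after median centring, and that of all promoters was -0.12 and 0.25. With the values as deposited 0 were called higher and 4 lower (2.82% and 15.1% of all promoters), and after median centring 10 higher and 0 lower (42.2% and 4.77%). The 4 calls became 0 without BT-named replicate 1 and 1 without BT-named replicate 2.

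Among the list's genes of osmotic response and cell volume, 17 of 20 were tested. LRRC8C, a subunit of the volume-regulated anion channel, had the largest difference as deposited, with average values of 113 and 121 in BT-named libraries and 166 and 206 in Control-named libraries. Both BT-named values were the lower ones, with a log2 difference of -0.66 ± 0.15 that passed as deposited (limma adjusted p = 0.000909) and not after median centring (-0.30, adjusted p = 0.0515). After median centring the largest difference was that of LRRC8E, another subunit of that channel, with 130 and 133 in BT-named libraries and 115 and 110 in Control-named libraries. Its log2 difference was 0.59 (limma adjusted p = 0.00251), in a scaling where 42.2% of all promoters were called higher. As deposited it was 0.23 ± 0.16 (limma adjusted p = 0.348). The limma adjusted p was 0.00533 after quantile normalization and 0.809 for peak values as deposited. The promoters of SGK1, a kinase induced by salt and steroid hormones, and TRPV4, a cation channel opened by cell swelling, were listed in neither BT-named library and in both Control-named libraries. Of all merged regions, 13.1% were listed in that way, and the signal of an unlisted promoter is not known.

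For the glycerol genes, 9 of 12 were tested, of which 2 were found under the older names AGPAT9 (GPAT3) and AGPAT6 (GPAT4). As deposited 0 of the 9 were called higher and 2 lower (2.82% and 15.1% of all promoters). After median centring 5 were called higher and 0 lower (42.2% and 4.77%). MGLL, the lipase that splits monoacylglycerol to glycerol, had the largest difference as deposited. Its average values were 35.9 and 26.3 in BT-named libraries and 47 and 45 in Control-named libraries. Its log2 difference was -0.57 ± 0.21 as deposited (limma adjusted p = 0.0476) and -0.21 after median centring (adjusted p = 0.394). Neither urea transporter gene, SLC14A1 or SLC14A2, had a promoter region in all libraries. Of 8 other aquaporin genes, AQP6 alone had promoter regions in all libraries. These were the 2 regions near its start that are also assigned to AQP5, as distal regions of that gene.

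The promoters with values most like those of the AQP1 promoter, by Euclidean distance in log2(average value + 1) over the 4 libraries, were those of DAB1, at a distance of 0.28, LOC101903380 at 0.33 and PPP2R2C at 0.38. DAB1, an adaptor protein of reelin signalling in neurons, had 149 and 146 in BT-named libraries and 76.6 and 67.0 in Control-named libraries. For the AQP11 promoter the nearest were DUSP14, a phosphatase, at 0.04, and CDC123 and NUDT5, which share a region, at 0.05. DUSP14 had 120 and 126 in BT-named libraries and 106 and 131 in Control-named libraries. These distances are over 4 libraries and describe likeness of values alone.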

How the data were processed

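ATAC-seq libraries were made and sequenced as paired reads of 42 nt, which per the labels the authors handled with Trim Galore 0.4.1, BWA, the UMD3.1 genome and MACS2. The deposited table holds signal values of each library's intervals (peak and average value), with genes, distances and CpG islands annotated by the authors. The normalization of the signal between libraries is not stated in any source used here. The study's supplement gives read totals, which differ between libraries and were not used here. A library's value covers that library's own interval, whose ends differ between libraries.

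Intervals overlapping by at least 1 bp were merged, the highest value being kept where a library had several. For regions in all 4 libraries, log2(average value + 1) was fitted with limma 3.58.1 (R 4.3.3; trended, robust, two-sided), adjusted over all regions or, with 1 region per gene, all promoters (threshold 0.05). This was repeated after median centring and quantile normalization. SEs come from these fits. The fit was also run on simulated data with independent normal errors and no shift between libraries. That run does not test the scaling between libraries, the listing or the differing interval ends. Starts were converted to count from 1. RefSeq (ARS-UCD2.0) was used for gene names only.

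The members and gene lists were chosen with earlier results of these data known. Named genes were the 6 members, list genes called under all 3 scalings, the uncalled gene with the largest difference in each list group, and the 3 nearest promoters. By that rule LRRC8C and MGLL, called as deposited only, count as uncalled. LRRC8E, SGK1, TRPV4 and the markers named beside a result were picked after their values were seen. Alternatives were leaving out each library, peak values, another pseudocount, merging rule, peak minimum, variance model and promoter distance, and a replicate block.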

Additional observations from a re-analysis of the deposited data

How the results depend on the processing

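Of the 15 aquaporin differences, 7 kept their sign in every alternative run that gave them a value, and 8 did not. With the values as deposited, 7 aquaporin regions were positive, and all regions gave 4548 calls higher and 25960 lower, promoters 361 and 1935, and the gene list (with AQP6) 0 and 4. After median centring these were 12 regions, 19898 and 13426, 5404 and 611, and 11 and 0. After quantile normalization they were 12 regions, 15382 and 14955, 3584 and 649, and 8 and 0. In fits that leave out 1 library, the lone library of its group is assumed to vary like the other group. They gave 4 to 8 positive aquaporin regions (4 without Control-named replicate 1), 2475 to 5382 regions called higher, 118 to 796 promoters higher and 715 to 3362 lower, and 0 to 1 list genes higher and 0 to 5 lower. Leaving out 1 library left 1 to 2 aquaporin regions listed in BT-named libraries only and 4 to 5 in Control-named libraries only, beside 1 and 3 with every library. The AQP3 region at 7449 bp was lost when intervals needed a peak value of 40, since both BT-named peaks lay under it. With the replicate block, 4833 regions were called higher and 26490 lower, and 484 and 2469 promoters. Deviations of same-numbered libraries correlated at 0.03, and 2 pairs do not show that the numbers pair the libraries. With 2 libraries a group and signal in place of read counts, no counting error could be given for single values.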

Other observations

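Further aquaporin genes had regions away from their starts, chosen here after their values were seen. AQP8, an aquaporin of digestive glands and the colon, had a region 9503 bp into the gene with average values of 108 and 113 in BT-named libraries and 54.1 and 74.4 in Control-named libraries. Both BT-named values were the higher ones, with a log2 difference of 0.79 as deposited and 1.15 after median centring, and the region was called higher under all 3 scalings (6.89% of all regions were). A second AQP8 region, at 7103 bp, had 132 and 131 in BT-named libraries and 117 and 147 in Control-named libraries, which overlapped.

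AQP2, the vasopressin-regulated water channel of the kidney collecting duct, had a region at 4966 bp with 37.6 and 36.0 in BT-named libraries and 62.2 and 50.2 in Control-named libraries, a log2 difference of -0.59 as deposited and -0.23 after median centring that was not called under all 3 scalings. MIP, the aquaporin of the eye lens, had its most open region 9421 bp upstream, with 233 and 216 in BT-named libraries and 197 and 221 in Control-named libraries and overlapping groups. None of these genes had a promoter region in the table.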
